A study of Mus musculus with 29 samples.

Results

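The 31 genes described here encode the membrane skeleton of the red cell, its blood group and adhesion proteins, its transporters, channels and carbonic anhydrases, and a few late erythroid and other proteins. They were taken from a list of names, drawn up with earlier results of these data known, by matching the Entrez identifiers of the count files to mouse symbols, and all 31 of 31 were found among 18834 identifiers. RNA-seq counts came from sorted mouse megakaryocyte-erythrocyte progenitors (MEPs), the bone marrow progenitors of platelets and red cells, in 29 libraries. With the activating kinase change JAK2 V617F there were 6 Ezh2 -/- libraries, 6 Ezh2 +/- libraries and 4 Ezh2 +/+ libraries. Without it there were 4 Ezh2 -/- libraries, 4 Ezh2 +/- libraries and 5 Ezh2 +/+ libraries, called controls below. All 6 groups, controls included, carried the SclCre transgene (spelled ScleCre in some labels), a Cre recombinase under Scl (Tal1) regulatory elements that act in blood stem and progenitor cells. EZH2 methylates histone H3 within the Polycomb complex PRC2, and JAK2 V617F drives most myeloproliferative neoplasms with red cell excess. The labels give a replicate number and a sex but not whether a library came from a single mouse, so the p-values reflect variation among these libraries, which may be partly technical. The V617F Ezh2 -/- and V617F Ezh2 +/- libraries were all female, and the other groups held both sexes.

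The red cell membrane is a lipid bilayer tied to a lattice of spectrin and short actin filaments. Ankyrin and protein 4.2 fix the lattice to the anion exchanger band 3, and adducin, dematin and tropomodulin hold the actin junctions. The same membrane carries gas and ion transport: carbonic anhydrase and band 3 work together in carbon dioxide transport, aquaporin 1 passes water, and Piezo1 with the Gardos channel Kcnn4 sets cell volume. Many of these genes are switched on by GATA1 and KLF1 as progenitors commit to the erythroid lineage, some early and some only in late erythroblasts. Blood group antigens are variants of several of these surface proteins.

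Libraries held 31.6 to 59.4 M counts, and every one of the 31 genes passed the filter on low counts. Ezh2 RNA, the check of the labels, spanned 51.2 to 59.5 CPM (a count scaled to library size by TMM) in V617F Ezh2 -/-, 67.9 to 79.5 in Ezh2 -/-, 148 to 205 in V617F Ezh2 +/-, 188 to 197 in Ezh2 +/-, 244 to 313 in V617F Ezh2 +/+ and 269 to 319 in control libraries. The progenitor markers Gata1, Klf1, Epor, Tfrc, Kit, Gfi1b and Itga2b were present in every library. Itga2b, also on the megakaryocyte list below, was at 22.9 to 38.7 CPM in Ezh2 -/- and 38.7 to 407 CPM in V617F Ezh2 +/-. These Itga2b values are scaled to total counts without TMM. RNA of other lineages differed between groups: of 21 megakaryocyte and platelet genes, 21 were higher and 0 lower with V617F in Ezh2 -/-, and of 15 granulocyte genes all 15 were higher. The summed megakaryocyte list held 1055 to 1601 CPM in V617F Ezh2 -/-, 257 to 1837 in V617F Ezh2 +/-, 405 to 1763 in V617F Ezh2 +/+, 165 to 241 in Ezh2 -/-, 217 to 572 in Ezh2 +/- and 201 to 653 in control libraries. The summed granulocyte list held 134 to 1352 CPM in V617F Ezh2 -/-, 346 to 1803 in V617F Ezh2 +/-, 670.5 to 1189 in V617F Ezh2 +/+, 22 to 88.6 in Ezh2 -/-, 38.3 to 339 in Ezh2 +/- and 49.7 to 339 in control libraries. The summed monocyte, macrophage and dendritic list held 99.8 to 288 CPM in V617F Ezh2 -/-, 76.5 to 245 in V617F Ezh2 +/-, 117 to 221 in V617F Ezh2 +/+, 97.6 to 148 in Ezh2 -/-, 131 to 538 in Ezh2 +/- and 203 to 609.8 in control libraries. The defining genes S100a8, Csf1r and Cd3e were at 0 in no library, nor was the megakaryocyte gene Pf4 (platelet factor 4). The part of these other lineages in the results below was not tested, and in bulk RNA fewer cells of a type and less RNA per cell cannot be told apart. Among V617F libraries, Ezh2 +/+ replicate 1 and Ezh2 +/- replicates 1, 5 and 6 stood apart from others of their group with megakaryocyte list means of 4.93 to 5.21 log2 CPM, and results that rest on them are given without them. The V617F Ezh2 -/- libraries had means of 4.62 to 5.21 and were all kept in that fit. Leaving the 4 out thus widened the difference in megakaryocyte RNA between V617F Ezh2 -/- and the other V617F groups.

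On a per-length scale (TPM, counts scaled by gene length and by library) the genes spanned 3.16 to 5992 TPM in controls. Car1, carbonic anhydrase 1, was highest at 5992 ± 559 TPM (SD, n = 5), followed by Car2 at 2404 ± 321 TPM and Aqp1 at 901 ± 36.4 TPM. Bsg at 440.4 ± 24 TPM and Ermap at 437 ± 65.1 TPM came next and did not differ beyond their spread. Most blood group and transport genes followed, such as Rhd at 207 ± 30.1 TPM, Kel at 175 ± 24.7 TPM and Slc14a1 at 108 ± 5.94 TPM. The low end held skeleton genes and some of the genes grouped as late erythroid and other, called late genes below for short. Among them were Epb42 at 18 ± 2.62 TPM, Trim10 at 17.6 ± 2.53 TPM, Dmtn at 8.46 ± 1.18 TPM and Cd36 at 5.21 ± 1.04 TPM. Slc2a1, the glucose transporter GLUT1, at 3.31 ± 1.35 TPM and Tmod1, tropomodulin 1, at 3.16 ± 1.26 TPM were lowest and indistinguishable at this spread. The spread between control replicates was near that of all genes, with a median coefficient of variation of 10.8% over the 31 genes and 10.5% over all tested genes. In V617F groups the 31 genes were more spread than all genes: their median was 13% in V617F Ezh2 -/- against 9.27% over all genes, 21.7% in V617F Ezh2 +/- against 14.5%, and 16.7% in V617F Ezh2 +/+ against 12.8%.

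**Figure D1:**
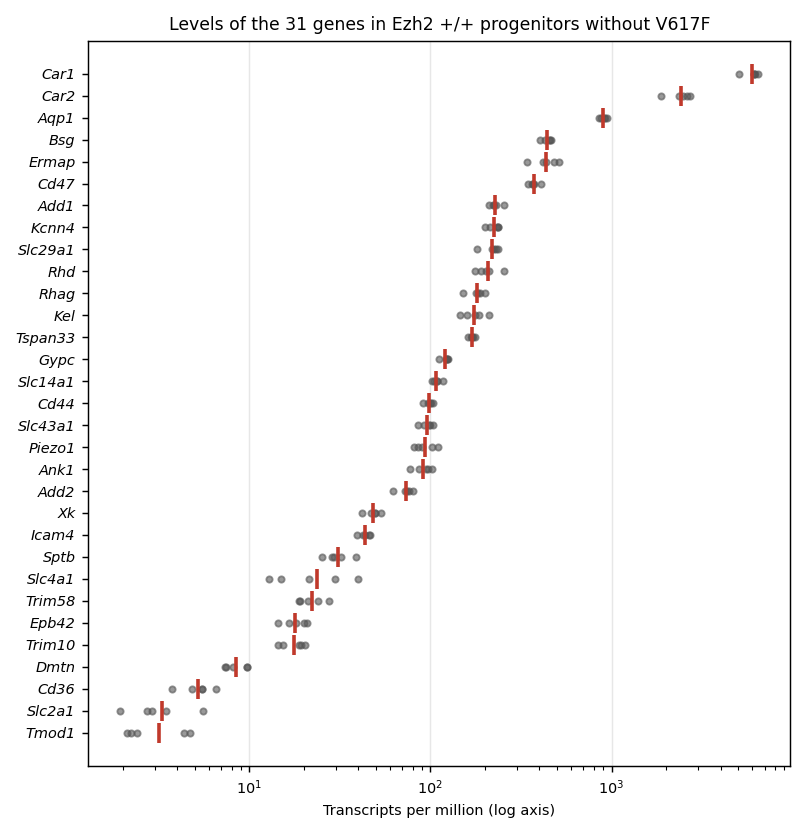
Per-length level of the 31 genes in the 5 control libraries, in TPM on a log axis, ordered by mean. Points are libraries and red ticks are means; Car1 at 5992 TPM is highest and Tmod1 at 3.16 TPM lowest.

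RefSeq (GRCm38.p6) held a promoter for 23 of the 31 genes. The 250 bases before the start of Cd36, Trim58, Aqp1 and Sptb are shown, since these are among the genes with the lowest adjusted p in the 4 main comparisons. Capitals mark matches to CCNCNCCC, a form of the CACC box that KLF1 can bind, searched on both strands; overlapping matches run together. The GATA motif letters AGATAA and TGATAA were searched the same way.
Cd36, chr5:17835897-17836146: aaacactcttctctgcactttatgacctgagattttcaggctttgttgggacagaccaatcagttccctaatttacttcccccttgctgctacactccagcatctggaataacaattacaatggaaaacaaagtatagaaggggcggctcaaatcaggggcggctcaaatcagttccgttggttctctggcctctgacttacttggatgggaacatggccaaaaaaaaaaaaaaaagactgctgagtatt
Trim58, chr11:58640215-58640464: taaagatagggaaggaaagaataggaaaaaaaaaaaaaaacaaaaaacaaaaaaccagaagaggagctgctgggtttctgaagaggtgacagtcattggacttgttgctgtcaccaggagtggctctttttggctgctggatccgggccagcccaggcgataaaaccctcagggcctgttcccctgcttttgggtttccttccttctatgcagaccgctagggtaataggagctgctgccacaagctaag
Aqp1, chr6:55336049-55336298: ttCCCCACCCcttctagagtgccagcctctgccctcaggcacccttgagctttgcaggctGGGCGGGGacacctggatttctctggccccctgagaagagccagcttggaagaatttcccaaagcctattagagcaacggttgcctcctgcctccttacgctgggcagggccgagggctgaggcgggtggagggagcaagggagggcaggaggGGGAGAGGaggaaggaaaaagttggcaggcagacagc
Sptb, chr12:76710548-76710797: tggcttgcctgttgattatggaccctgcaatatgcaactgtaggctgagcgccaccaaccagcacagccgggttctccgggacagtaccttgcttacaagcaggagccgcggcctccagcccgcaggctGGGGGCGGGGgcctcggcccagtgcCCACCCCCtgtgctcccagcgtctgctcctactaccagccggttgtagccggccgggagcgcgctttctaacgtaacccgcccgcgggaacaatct
Cd36 and Sptb lie on the minus strand, and Trim58 and Aqp1 on the plus strand. In these windows Aqp1 and Sptb have 3 CCNCNCCC matches each, and Cd36 and Trim58 have 0 of either motif. A GATA match was present in 8 of the 23 promoters (34.8%), against 17% of 27025 promoters of the same length. CCNCNCCC was present in 14 of 23 (60.9%), against 45.6% of all. Kel had 2 GATA matches, more than any other of the 23. These are letter matches in a window and no evidence of binding.

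Loss of both Ezh2 alleles without V617F raised part of the list and lowered none of it. Of the 31 genes, 8 rose (11.5% of all tested genes rose) and 0 fell (12.2% of all fell), with edgeR's quasi-likelihood test and a Benjamini-Hochberg adjusted p under 0.05. The DESeq2 Wald test also called 8 higher and 0 lower. At an unadjusted p under 0.05 the edgeR counts were 11 and 0, beside 2384 and 2743 of all 13928 genes. The 8 were the skeleton genes Sptb, Dmtn and Tmod1, the transporters Aqp1, Slc14a1 and Slc43a1, and the late genes Trim10 and Cd36. None of the 10 blood group and adhesion genes passed the test. The median log2 fold change was 0.18 over the 31 genes and -0.01 over all genes. In 9 of the 31, every Ezh2 -/- library lay above every control library, which was so for 11.5% of all genes. At the same time 5 of 21 megakaryocyte genes, 5 of 21 monocyte, macrophage and dendritic genes, 6 of 18 T, NK and B cell genes and 7 of 15 stem and multipotent progenitor genes were lower in Ezh2 -/-, 1 of those 15 was higher, and the summed stem and multipotent progenitor list held 1537 to 1975 CPM there and 2073 to 2454 CPM in controls.

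With V617F present, Ezh2 -/- libraries again had more of 3 skeleton RNAs than Ezh2 +/+ libraries and less of both carbonic anhydrases. Of the 31 genes, 6 rose (13% of all genes) and 3 fell (13.6% of all genes). Sptb, Dmtn, Tmod1, Slc14a1, Trim58 and Cd36 were higher, and Car1, Car2 and Bsg were lower. This comparison has no library in common with the Ezh2 comparison without V617F, and 5 genes rose in both, which is 5 of 8 and 5 of 6. Over all genes, 818 rose in both, 51.0% and 45.1% of the genes that rose in each. The median log2 fold change was near 0 both over the 31 genes and over all genes. The count of genes that fell was 6 without V617F Ezh2 +/+ replicate 1, 1 without V617F Ezh2 +/+ replicate 4, and 8 without the 4 V617F libraries that stood apart. Called in either direction in those fits, in that order, were 36.7%, 13.9% and 46.2% of all genes, against 26.6% in the main fit. In the same comparison 1 of 21 megakaryocyte genes was higher and 0 were lower, and 6 of 18 T, NK and B cell genes were higher and 1 was lower. None of the 15 granulocyte, 21 monocyte, macrophage and dendritic or 15 stem and multipotent progenitor genes was called there.

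V617F in Ezh2 +/+ progenitors changed 6 of the 31 genes (19.4%), near the 23.6% of all genes. Tmod1 and Slc14a1 rose, 2 of 31 against 9.73% of all genes, and Kel, Add1, Piezo1 and Trim58 fell, 4 of 31 against 13.9% of all genes. The median log2 fold change was -0.04, against 0.01 over all genes. Beside this, 12 of 21 megakaryocyte genes and 13 of 15 granulocyte genes rose, and 16 of 21 monocyte, macrophage and dendritic genes and 10 of 18 T, NK and B cell genes fell. In the monocyte list 2 others rose, and of 15 stem and multipotent progenitor genes 4 rose and 2 fell. The count that rose was 1 without control replicate 1, 2 or 4 or V617F Ezh2 +/+ replicate 1, and 4 without the 4 V617F libraries that stood apart. The count that fell was 2 without V617F Ezh2 +/+ replicate 1 or 2. Called in either direction were 18.1% to 23.5% of all genes in these fits that left out 1 library. Without those 4 libraries it was 28.5%, against 23.6% in the main fit.

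In Ezh2 -/- progenitors V617F lowered 16 genes of the list and raised 5. Over all genes, 22.5% fell and 19.1% rose. The 16 that fell included 6 of the 10 transport genes (Aqp1, Car1, Car2, Slc43a1, Piezo1 and Kcnn4), 4 of the 10 blood group and adhesion genes (Rhd, Kel, Ermap and Bsg), 3 of the 7 skeleton genes (Epb42, Ank1 and Add1) and 3 of the 4 late genes (Tspan33, Trim10 and Cd36). The 5 that rose were Gypc, Tmod1, Slc14a1, Slc2a1 and Trim58. The median log2 fold change was -0.38 over the 31 genes and -0.03 over all genes. In 15 genes every V617F Ezh2 -/- library lay below every Ezh2 -/- library (18.8% of all genes) and in 4 every one lay above (19% of all genes). The number that fell was 9 without Ezh2 -/- replicate 3. The number that rose was 1 without Ezh2 -/- replicate 1 or 2, 2 without Ezh2 -/- replicate 3, and 3 without Ezh2 -/- replicate 4 or V617F Ezh2 -/- replicate 1, 2 or 4. Called in either direction were 22.7% of all genes without Ezh2 -/- replicate 3 and 28.3% to 42.5% in the others of these fits. In the main fit it was 41.6%. The Ezh2 -/- group without V617F had the lowest megakaryocyte levels of all, and all 21 tested megakaryocyte genes, all 15 granulocyte genes and 10 of 15 stem and multipotent progenitor genes were higher in V617F Ezh2 -/-. Of 21 monocyte, macrophage and dendritic genes 2 rose and 9 fell, of 18 T, NK and B cell genes 2 rose and 5 fell, and 1 stem and multipotent progenitor gene fell.

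No library is shared by the V617F comparisons in Ezh2 -/- and Ezh2 +/+. Kel, Add1 and Piezo1 fell in both, 3 of 16 and 3 of 4, and Tmod1 and Slc14a1 rose in both, 2 of 5 and 2 of 2. Over all genes, 751 fell in both (24% of those in Ezh2 -/- and 38.9% of those in Ezh2 +/+) and 595 rose in both (22.3% and 43.9%). Both comparisons of V617F Ezh2 -/- use the same 6 libraries, and both comparisons with controls use the same 5. The same 4 Ezh2 -/- libraries enter the Ezh2 comparison without V617F and, with the opposite sign, the V617F comparison in Ezh2 -/-. A level high in those 4 by chance would show as a rise in the first and a fall in the second. Values of comparisons that share libraries are thus given side by side and not correlated.

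**Figure D2:**
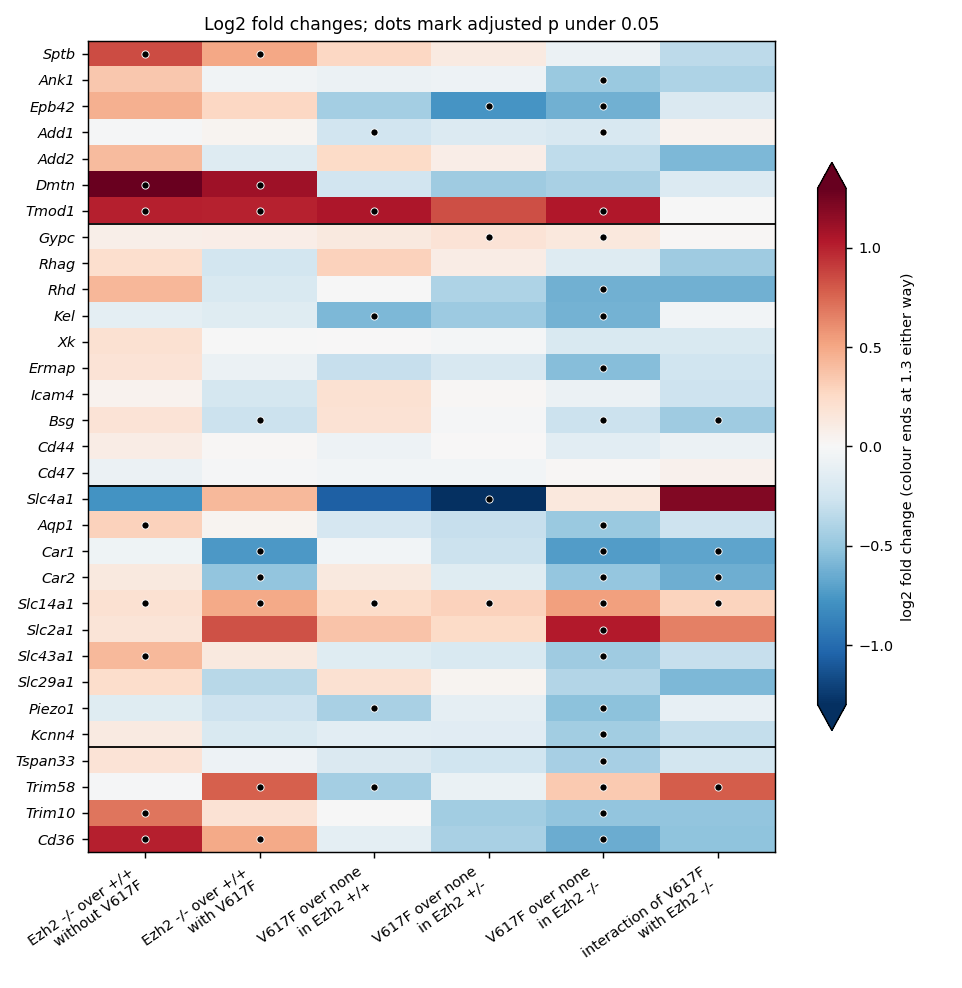
Log2 fold changes of the 31 genes (rows, grouped as skeleton, blood group and adhesion, transport, and late genes) in 5 comparisons and the interaction (columns). Red is higher and blue lower in the group named first, and dots mark adjusted p under 0.05; the column for V617F in Ezh2 -/- holds 16 blue dots and 5 red dots, and the column for Ezh2 -/- without V617F 8 red dots.

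Among the 31 genes the largest increase with Ezh2 loss, both without V617F and with it, was that of Dmtn. Dmtn encodes dematin, which bundles actin at the junctions of the skeleton. With V617F, Dmtn had 26, 34.7 and 56.4 CPM (lowest, median and highest of 6) in Ezh2 -/-, 10.7, 16.7 and 24.9 CPM (likewise of 6) in Ezh2 +/- and 11.8, 18, 20.3 and 15 CPM in Ezh2 +/+ libraries. Without V617F, Dmtn had 54.6, 45.9, 55.6 and 35.4 CPM in Ezh2 -/-, 18.4, 25.2, 18.8 and 23.4 CPM in Ezh2 +/- and 16.1, 17, 22.1, 19.1 and 21.8 CPM in control libraries. All Ezh2 -/- libraries lay above all Ezh2 +/+ libraries, both with V617F and without it. The log2 fold change of Dmtn in Ezh2 -/- was 1.28 ± 0.23 (adjusted p = 0.000161) (± SE here and below) without V617F and 1.10 ± 0.23 (adjusted p = 0.00133) with it. The call was made in every fit that left out 1 library. V617F gave -0.42 ± 0.22 in Ezh2 -/- and -0.25 ± 0.23 in Ezh2 +/+, neither past the test.

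Sptb encodes erythroid β-spectrin. With V617F, Sptb had 199.8, 249 and 304 CPM (lowest, median and highest of 6) in Ezh2 -/-, 124, 173 and 247 CPM (likewise of 6) in Ezh2 +/- and 132, 183, 226 and 171 CPM in Ezh2 +/+ libraries. Without V617F, Sptb had 282, 233, 283 and 264 CPM in Ezh2 -/-, 158, 178, 162 and 142 CPM in Ezh2 +/- and 117, 138, 187, 159.7 and 139 CPM in control libraries. Without V617F the Ezh2 -/- libraries were all above the controls, while with V617F the genotypes overlapped. Sptb rose in Ezh2 -/-, a log2 fold change of 0.84 ± 0.18 (adjusted p = 0.00103) without V617F and 0.50 ± 0.18 (adjusted p = 0.0389) with it. The second call was lost without V617F Ezh2 +/+ replicate 1, 2 or 4 or V617F Ezh2 -/- replicate 3, 5 or 6 (0.37 to 0.53, adjusted p 0.0512 to 0.122), and without the 4 V617F libraries that stood apart (0.37, adjusted p = 0.0504). V617F itself moved Sptb by -0.07 ± 0.17 in Ezh2 -/- and 0.27 ± 0.18 in Ezh2 +/+, not past the test.

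Tmod1 encodes tropomodulin 1, the cap of the short actin filaments, and was called in all 4 main comparisons. With V617F, Tmod1 had 16.8, 20.1 and 23.1 CPM (lowest, median and highest of 6) in Ezh2 -/-, 3.30, 9.35 and 15.4 CPM (likewise of 6) in Ezh2 +/- and 19.3, 7.54, 3.57 and 7.53 CPM in Ezh2 +/+ libraries. Without V617F, Tmod1 had 7.49, 7.36, 9.92 and 9.26 CPM in Ezh2 -/-, 2.71, 3.05, 4.52 and 6.42 CPM in Ezh2 +/- and 2.72, 2.97, 5.78, 3.28 and 6.15 CPM in control libraries. The V617F Ezh2 -/- libraries were above every library without V617F. Among V617F Ezh2 +/+ libraries, replicate 1 was far above the other 3, and it was also the one with the most megakaryocyte RNA (5.14 log2 CPM). Tmod1 is also expressed outside the red cell lineage. Its log2 fold change in Ezh2 -/- was 1.01 ± 0.36 (adjusted p = 0.0407) without V617F and 1.0 ± 0.35 (adjusted p = 0.0362) with it. V617F raised it, a log2 fold change of 1.04 ± 0.36 (adjusted p = 0.0254) in Ezh2 -/- and 1.05 ± 0.36 (adjusted p = 0.037) in Ezh2 +/+. The first call was lost without control replicate 1, 2 or 4 or Ezh2 -/- replicate 3 or 4 (0.68 to 1.01, adjusted p 0.0702 to 0.219) and the second without V617F Ezh2 +/+ replicate 2, 3 or 4 or V617F Ezh2 -/- replicate 2, 3 or 4 (0.80 to 1.0, adjusted p 0.0557 to 0.137). The V617F call in Ezh2 -/- was lost without Ezh2 -/- replicate 1, 2 or 3 (0.90 to 1.07, adjusted p 0.0692 to 0.0902), and the V617F call in Ezh2 +/+ without control replicate 1, 2 or 4 or V617F Ezh2 +/+ replicate 1 (0.52 to 1.03, adjusted p 0.0607 to 0.273) and without the 4 V617F libraries that stood apart (0.52, adjusted p = 0.157).

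The other skeleton genes moved mainly with V617F. Epb42 encodes protein 4.2, which joins band 3 to ankyrin. It averaged 26.7 ± 4.03 CPM in V617F Ezh2 -/- (SD, n = 6) and 40.2 ± 7.64 CPM in Ezh2 -/- (SD, n = 4) (-0.63 ± 0.18, adjusted p = 0.00841). That call ended without Ezh2 -/- replicate 3 (-0.51, adjusted p = 0.0517). Ank1, ankyrin 1, averaged 328 ± 76.4 CPM in V617F Ezh2 -/- and 472 ± 22.7 CPM in Ezh2 -/-. Its fall (-0.48 ± 0.18, adjusted p = 0.0324) ended without Ezh2 -/- replicate 1, 2 or 3 or V617F Ezh2 -/- replicate 1, 2, 3 or 4 (-0.49 to -0.39, adjusted p 0.0506 to 0.0947). Add1, the widely expressed α-adducin, fell with V617F, a log2 fold change of -0.21 ± 0.06 (adjusted p = 0.0141) in Ezh2 -/- and -0.25 ± 0.07 (adjusted p = 0.00745) in Ezh2 +/+. The first of these was lost without Ezh2 -/- replicate 2 or V617F Ezh2 -/- replicate 2 or 4 (-0.17 to -0.16, adjusted p 0.052 to 0.0666). Add2, β-adducin, was the only skeleton gene called in none of the comparisons, at 0.41 ± 0.18 in Ezh2 -/- without V617F and -0.33 ± 0.17 with V617F in Ezh2 -/-.

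Among blood group and adhesion genes, Kel had the lowest adjusted p. Kel is the Kell endopeptidase, whose partner in the membrane is Xk. With V617F, Kel had 96.4, 116 and 126 CPM (lowest, median and highest of 6) in Ezh2 -/-, 86.1, 125 and 173 CPM (likewise of 6) in Ezh2 +/- and 87.3, 122, 175 and 147 CPM in Ezh2 +/+ libraries. Without V617F, Kel had 196, 181, 173 and 169 CPM in Ezh2 -/-, 212, 192, 202 and 163 CPM in Ezh2 +/- and 235, 217, 205, 192 and 166 CPM in control libraries. Every V617F Ezh2 -/- library was below every Ezh2 -/- library, whereas in Ezh2 +/+ the V617F replicate 3 reached into the control range. Kel fell with V617F, a log2 fold change of -0.62 ± 0.15 (adjusted p = 0.00353) in Ezh2 -/- and -0.59 ± 0.16 (adjusted p = 0.00925) in Ezh2 +/+. Both calls were made in every fit that left out 1 library. Ezh2 loss gave Kel -0.12 ± 0.16 without V617F and -0.16 ± 0.15 with it, neither past the test.

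Bsg encodes basigin, the partner of the monocarboxylate transporters. With V617F, Bsg had 293, 330.2 and 348 CPM (lowest, median and highest of 6) in Ezh2 -/-, 301, 369 and 442 CPM (likewise of 6) in Ezh2 +/- and 339, 393, 440.1 and 439.9 CPM in Ezh2 +/+ libraries. Without V617F, Bsg had 393, 364, 449 and 398 CPM in Ezh2 -/-, 371, 389.8, 437 and 330.3 CPM in Ezh2 +/- and 335, 373, 367, 385 and 322 CPM in control libraries. The V617F Ezh2 -/- libraries lay below all Ezh2 -/- libraries and overlapped V617F Ezh2 +/+ at replicate 1 of V617F Ezh2 +/+. Bsg fell with V617F in Ezh2 -/-, a log2 fold change of -0.28 ± 0.09 (adjusted p = 0.02), and was lower in V617F Ezh2 -/- than in V617F Ezh2 +/+, a log2 fold change of -0.28 ± 0.09 (adjusted p = 0.0271). The first call was lost without Ezh2 -/- replicate 3 or V617F Ezh2 -/- replicate 2 (-0.23 to -0.18, adjusted p 0.0582 to 0.134) and the second without V617F Ezh2 +/+ replicate 2, 3 or 4 or V617F Ezh2 -/- replicate 2 or 4 (-0.27 to -0.21, adjusted p 0.0546 to 0.134).

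Of the other surface genes, Rhd and Ermap also fell with V617F in Ezh2 -/-. The human counterpart of Rhd carries the RhD antigen. Rhd averaged 127 ± 22.5 CPM in V617F Ezh2 -/- and 196 ± 28.3 CPM in Ezh2 -/- (-0.63 ± 0.18, adjusted p = 0.00918), a call lost without Ezh2 -/- replicate 3 (-0.51, adjusted p = 0.054). Ermap, an immunoglobulin-family protein of the erythroid membrane, averaged 657 ± 95.2 CPM in V617F Ezh2 -/- and 1002 ± 57.5 CPM in Ezh2 -/- (-0.56 ± 0.15, adjusted p = 0.0076), and this call was made in every fit that left out 1 library. Gypc, glycophorin C, rose slightly with V617F in Ezh2 -/- (0.14 ± 0.05, adjusted p = 0.0327), a call lost without Ezh2 -/- replicate 1, 2 or 4 or V617F Ezh2 -/- replicate 1 or 5 (0.13 to 0.14, adjusted p 0.0501 to 0.0835). Rhag, the Rh-associated glycoprotein that Rhd needs at the surface, did not pass the test in any comparison (-0.16 ± 0.15 with V617F in Ezh2 -/-, 0.22 ± 0.15 for Ezh2 -/- without V617F). Xk, Icam4, Cd44 and Cd47 also passed in none. The last of these, the surface signal that protects red cells from phagocytes, lay between -0.07 ± 0.05 (Ezh2 -/- without V617F) and 0.01 ± 0.04 (V617F in Ezh2 -/-) in the 4 main comparisons.

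**Figure D3:**
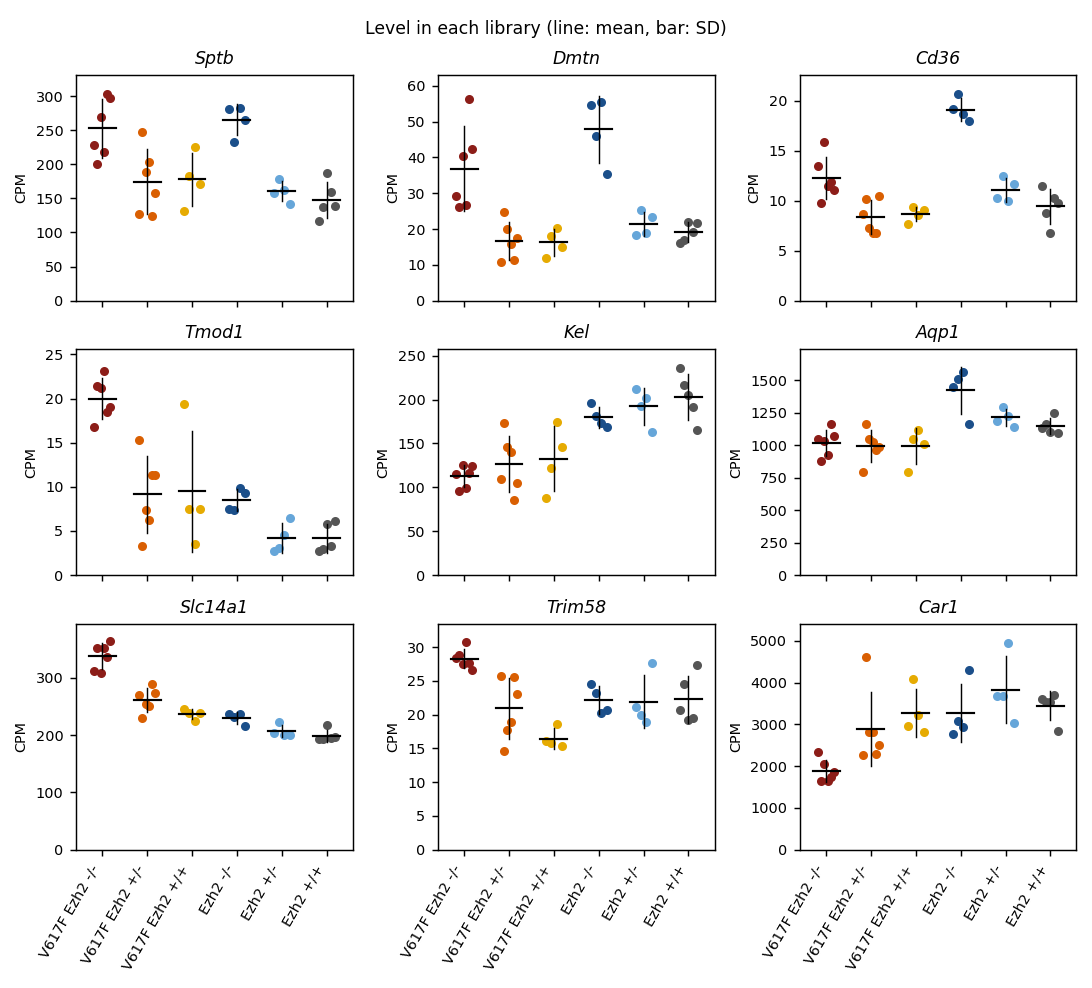
CPM of 9 of the genes in each library, by genotype, with V617F groups on the left and controls on the right. Points are libraries, lines are means and bars are SD; Slc14a1 is highest in the 6 V617F Ezh2 -/- libraries (309 to 363 CPM) and Car1 in them (at most 2341 CPM) is below all Ezh2 -/- and all V617F Ezh2 +/+ libraries.

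The transport genes split into 1 that rose in every test of a homozygous genotype and several that fell with V617F in Ezh2 -/-. Slc14a1 encodes the urea transporter UT-B, which carries the Kidd blood group in human red cells. With V617F, Slc14a1 had 309, 345 and 363 CPM (lowest, median and highest of 6) in Ezh2 -/-, 230.3, 262 and 289 CPM (likewise of 6) in Ezh2 +/- and 246, 239, 225 and 238 CPM in Ezh2 +/+ libraries. Without V617F, Slc14a1 had 236, 232, 237 and 215 CPM in Ezh2 -/-, 203, 224, 201 and 200.3 CPM in Ezh2 +/- and 193, 193, 217, 194 and 197 CPM in control libraries. V617F Ezh2 -/- libraries were above all the others, and V617F Ezh2 +/+ libraries above all controls. Slc14a1 rose in Ezh2 -/-, a log2 fold change of 0.20 ± 0.06 (adjusted p = 0.0137) without V617F and 0.49 ± 0.06 (adjusted p = 6.49e-07) with it. V617F raised it, a log2 fold change of 0.53 ± 0.06 (adjusted p = 1.27e-06) in Ezh2 -/-, 0.29 ± 0.06 (adjusted p = 0.00185) in Ezh2 +/- and 0.24 ± 0.06 (adjusted p = 0.00347) in Ezh2 +/+. All 5 calls were made in every fit that left out 1 library.

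Car1 encodes carbonic anhydrase 1, the most abundant of the 31 RNAs. With V617F, Car1 had 1648, 1798 and 2341 CPM (lowest, median and highest of 6) in Ezh2 -/-, 2265, 2661 and 4624 CPM (likewise of 6) in Ezh2 +/- and 2953, 4095, 3229 and 2817 CPM in Ezh2 +/+ libraries. Without V617F, Car1 had 2768, 3074, 2950.0 and 4306 CPM in Ezh2 -/-, 3674, 3681, 4941 and 3024 CPM in Ezh2 +/- and 3611, 3543, 3539.5, 3709 and 2853 CPM in control libraries. The 6 V617F Ezh2 -/- libraries were below every Ezh2 -/- library and every V617F Ezh2 +/+ library. Car1 fell with V617F in Ezh2 -/-, a log2 fold change of -0.72 ± 0.17 (adjusted p = 0.00223), and it was lower in V617F Ezh2 -/- than in V617F Ezh2 +/+, a log2 fold change of -0.74 ± 0.16 (adjusted p = 0.0019). In Ezh2 +/+ the V617F value was -0.04 ± 0.17, not past the test.

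Car2 is its cytosolic paralogue with the higher catalytic rate. With V617F, Car2 had 1363, 1435 and 1744 CPM (lowest, median and highest of 6) in Ezh2 -/-, 1456, 1842 and 2289 CPM (likewise of 6) in Ezh2 +/- and 1752, 2082, 2466 and 2353 CPM in Ezh2 +/+ libraries. Without V617F, Car2 had 2210.1, 1825, 2525 and 2066 CPM in Ezh2 -/-, 2164, 2299, 2364 and 1687 CPM in Ezh2 +/- and 1874, 2069, 2162, 2308 and 1532 CPM in control libraries. As with Car1, the V617F Ezh2 -/- libraries were below every library of both groups they were set against. Car2 fell, a log2 fold change of -0.51 ± 0.14 (adjusted p = 0.00818) with V617F in Ezh2 -/-, a call lost without Ezh2 -/- replicate 3 (-0.38, adjusted p = 0.0563). It was lower in V617F Ezh2 -/- than in V617F Ezh2 +/+, a log2 fold change of -0.51 ± 0.14 (adjusted p = 0.0117), a call lost without V617F Ezh2 +/+ replicate 4 (-0.44, adjusted p = 0.0544).

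Aqp1, the water channel, was high in 3 of the 4 Ezh2 -/- libraries. With V617F, Aqp1 had 877, 1039 and 1159 CPM (lowest, median and highest of 6) in Ezh2 -/-, 792, 1005 and 1164 CPM (likewise of 6) in Ezh2 +/- and 793, 1049, 1113 and 1007 CPM in Ezh2 +/+ libraries. Without V617F, Aqp1 had 1450.3, 1512, 1559 and 1161 CPM in Ezh2 -/-, 1189, 1296, 1226 and 1139.8 CPM in Ezh2 +/- and 1129.8, 1165, 1097, 1249.8 and 1094 CPM in control libraries. No V617F Ezh2 -/- library reached the range of the Ezh2 -/- libraries. Aqp1 rose in Ezh2 -/- without V617F, a log2 fold change of 0.30 ± 0.10 (adjusted p = 0.0333), a call lost without control replicate 1, 3 or 5 or Ezh2 -/- replicate 1, 2 or 3 (0.27 to 0.30, adjusted p 0.0587 to 0.0838). V617F lowered it in Ezh2 -/-, a log2 fold change of -0.49 ± 0.10 (adjusted p = 0.000942), a call made in every fit that left out 1 library. The rise and the fall of Aqp1 use the same Ezh2 -/- libraries.

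Slc43a1, a transporter of large neutral amino acids, was likewise highest in Ezh2 -/- without V617F. With V617F, Slc43a1 had 102, 127 and 139.7 CPM (lowest, median and highest of 6) in Ezh2 -/-, 95.8, 114 and 135 CPM (likewise of 6) in Ezh2 +/- and 94.6, 111, 137 and 116 CPM in Ezh2 +/+ libraries. Without V617F, Slc43a1 had 177, 174, 179.9 and 155 CPM in Ezh2 -/-, 139.9, 138, 133 and 124 CPM in Ezh2 +/- and 135, 135, 125, 137 and 114 CPM in control libraries. Ezh2 -/- libraries without V617F stood above both the V617F Ezh2 -/- libraries and the controls, with no overlap. Slc43a1 rose in Ezh2 -/- without V617F, a log2 fold change of 0.43 ± 0.10 (adjusted p = 0.00356) and fell with V617F in Ezh2 -/-, a log2 fold change of -0.46 ± 0.10 (adjusted p = 0.00129). Neither call was lost in a fit that left out 1 library, but both use the same Ezh2 -/- libraries.

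The volume-regulating channels fell together with V617F in Ezh2 -/-. Piezo1 is the mechanosensitive cation channel whose gain of function causes hereditary xerocytosis. With V617F, Piezo1 had 162, 198 and 246 CPM (lowest, median and highest of 6) in Ezh2 -/-, 205, 281 and 339 CPM (likewise of 6) in Ezh2 +/- and 184, 231, 367 and 258 CPM in Ezh2 +/+ libraries. Without V617F, Piezo1 had 328, 310.3, 282 and 304 CPM in Ezh2 -/-, 380.1, 316, 312 and 312 CPM in Ezh2 +/- and 404, 390.0, 342, 319 and 320.0 CPM in control libraries. V617F Ezh2 -/- libraries were all below Ezh2 -/- libraries, and in Ezh2 +/+ the male V617F replicate 3 lay within the control range. Piezo1 fell with V617F, a log2 fold change of -0.53 ± 0.13 (adjusted p = 0.00427) in Ezh2 -/- and -0.42 ± 0.14 (adjusted p = 0.0297) in Ezh2 +/+. The call in Ezh2 +/+ was lost without control replicate 1 or 3 or V617F Ezh2 +/+ replicate 1 or 2 (-0.42 to -0.31, adjusted p 0.0542 to 0.115) and without the 4 V617F libraries that stood apart (-0.31, adjusted p = 0.0515).

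Kcnn4 is the calcium-activated potassium channel of the red cell. With V617F, Kcnn4 had 140.1, 159 and 177 CPM (lowest, median and highest of 6) in Ezh2 -/-, 146, 184 and 228 CPM (likewise of 6) in Ezh2 +/- and 152, 182, 226 and 194 CPM in Ezh2 +/+ libraries. Without V617F, Kcnn4 had 225, 213, 234 and 221 CPM in Ezh2 -/-, 228, 215, 243 and 192 CPM in Ezh2 +/- and 213, 222, 202, 229 and 185 CPM in control libraries. Again no V617F Ezh2 -/- library reached the Ezh2 -/- range. Kcnn4 fell with V617F in Ezh2 -/-, a log2 fold change of -0.45 ± 0.10 (adjusted p = 0.00172), also in every fit that left out 1 library, and in Ezh2 +/+ the value was -0.14 ± 0.10, not past the test.

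Slc2a1 and Slc29a1 were less clear. Slc2a1, the glucose transporter GLUT1, averaged 10.9 ± 1.90 CPM in V617F Ezh2 -/- and 4.44 ± 0.478 CPM in Ezh2 -/- (1.03 ± 0.39, adjusted p = 0.0383), a call lost without Ezh2 -/- replicate 1, 2 or 3 or V617F Ezh2 -/- replicate 2 or 4 (0.90 to 1.01, adjusted p 0.0631 to 0.138). In V617F Ezh2 +/+ its 4 libraries were at 12.4, 4.35, 2.13 and 4.06 CPM, and the highest of them was again replicate 1. Slc29a1, the nucleoside transporter ENT1, passed the test in none of the comparisons, and V617F gave it -0.38 ± 0.16 (adjusted p = 0.0525) in Ezh2 -/-.

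Slc4a1, band 3, is the most abundant membrane protein of the mature red cell and its RNA ranged widely between libraries. With V617F, Slc4a1 had 30.5, 34.4 and 60.4 CPM (lowest, median and highest of 6) in Ezh2 -/-, 8.85, 18.9 and 53.1 CPM (likewise of 6) in Ezh2 +/- and 33.2, 28.7, 17.2 and 25 CPM in Ezh2 +/+ libraries. Without V617F, Slc4a1 had 39.6, 23.5, 34.5 and 25.8 CPM in Ezh2 -/-, 31.1, 40.9, 28.3 and 130.3 CPM in Ezh2 +/- and 30.6, 44.9, 62.3, 27.8 and 82.3 CPM in control libraries. The groups overlapped in every comparison. Alas2, the erythroid enzyme of heme synthesis, and the β-globin gene Hbb-bs were set beside it. In 5 of the 6 groups the library highest for Slc4a1 was also the highest for both, and in Ezh2 -/- it was the highest for Alas2 and not for Hbb-bs. Ezh2 +/- replicate 5, the highest of all for Slc4a1, had 33.1 CPM of Alas2 and 249 CPM of Hbb-bs. Between groups the levels did not keep 1 ratio. V617F Ezh2 -/- replicate 3 had 60.4 CPM of Slc4a1, 9.85 CPM of Alas2 and 51.2 CPM of Hbb-bs, against 62.3, 17.4 and 111 CPM in control replicate 3. Epb42, whose protein binds band 3, was not highest in the library with the most Slc4a1, at 34.2 CPM in Ezh2 +/- replicate 5 and 38.8 CPM in replicate 2. Slc4a1 passed the test only for V617F in Ezh2 +/- (-1.62 ± 0.40, adjusted p = 0.00989), and that call was lost without Ezh2 +/- replicate 5 (-0.92, adjusted p = 0.231). Its values were -1.06 ± 0.42 for V617F in Ezh2 +/+ and -0.78 ± 0.41 for Ezh2 -/- without V617F.

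The late genes Cd36 and Trim10 were higher in Ezh2 -/- without V617F than in controls and than in V617F Ezh2 -/-. Both differences use the same Ezh2 -/- libraries. Cd36 is a fatty acid and thrombospondin receptor that erythroid progenitors display. With V617F, Cd36 had 9.78, 11.7 and 15.8 CPM (lowest, median and highest of 6) in Ezh2 -/-, 6.71, 7.98 and 10.5 CPM (likewise of 6) in Ezh2 +/- and 7.67, 9.31, 8.58 and 9.08 CPM in Ezh2 +/+ libraries. Without V617F, Cd36 had 19.1, 20.6, 18.7 and 18 CPM in Ezh2 -/-, 10.2, 12.5, 9.97 and 11.6 CPM in Ezh2 +/- and 11.5, 8.76, 6.80, 10.3 and 9.79 CPM in control libraries. Ezh2 -/- libraries without V617F had at least 18 CPM of Cd36, and no library of another group exceeded 15.8 CPM. Cd36 rose in Ezh2 -/-, a log2 fold change of 1.01 ± 0.15 (adjusted p = 1.63e-05) without V617F and 0.49 ± 0.15 (adjusted p = 0.0182) with it. V617F lowered it in Ezh2 -/-, a log2 fold change of -0.65 ± 0.14 (adjusted p = 0.00182). All 3 calls were made in every fit that left out 1 library. Cd36 RNA is also found in platelets and monocytes, whose lists moved with V617F as given above.

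Trim10 encodes an E3 ubiquitin ligase family member of erythroid cells. With V617F, Trim10 had 16.2, 20.7 and 27.6 CPM (lowest, median and highest of 6) in Ezh2 -/-, 10.1, 16.8 and 25.8 CPM (likewise of 6) in Ezh2 +/- and 16.2, 19.6, 19.9 and 17.8 CPM in Ezh2 +/+ libraries. Without V617F, Trim10 had 29.8, 27.2, 36.7 and 26.4 CPM in Ezh2 -/-, 19.6, 22.8, 23.4 and 20.5 CPM in Ezh2 +/- and 14.5, 16.1, 21, 20.7 and 19.1 CPM in control libraries. The 4 Ezh2 -/- libraries were above the 5 controls and overlapped the V617F group at V617F Ezh2 -/- replicate 5. Trim10 rose in Ezh2 -/- without V617F, a log2 fold change of 0.70 ± 0.18 (adjusted p = 0.00671), in every fit that left out 1 library. With V617F in Ezh2 -/- it fell, a log2 fold change of -0.52 ± 0.18 (adjusted p = 0.0229), a call lost without Ezh2 -/- replicate 3 or V617F Ezh2 -/- replicate 2 or 4 (-0.46 to -0.39, adjusted p 0.0554 to 0.125).

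Trim58 encodes a ubiquitin ligase that acts on dynein before enucleation, and it moved in opposite directions with V617F in the 2 Ezh2 backgrounds. With V617F, Trim58 had 26.6, 28.1 and 30.8 CPM (lowest, median and highest of 6) in Ezh2 -/-, 14.7, 21 and 25.7 CPM (likewise of 6) in Ezh2 +/- and 16.1, 15.8, 18.7 and 15.3 CPM in Ezh2 +/+ libraries. Without V617F, Trim58 had 24.6, 23.2, 20.3 and 20.7 CPM in Ezh2 -/-, 21.1, 20, 18.9 and 27.7 CPM in Ezh2 +/- and 20.7, 24.5, 19.3, 19.6 and 27.3 CPM in control libraries. The V617F Ezh2 -/- libraries were above all V617F Ezh2 +/+ and all Ezh2 -/- libraries, and the V617F Ezh2 +/+ libraries were below all controls. V617F raised Trim58 in Ezh2 -/-, a log2 fold change of 0.34 ± 0.14 (adjusted p = 0.0444) and lowered it in Ezh2 +/+, a log2 fold change of -0.44 ± 0.14 (adjusted p = 0.024). The call in Ezh2 -/- was lost without Ezh2 -/- replicate 1, 2, 3 or 4 or V617F Ezh2 -/- replicate 1, 2 or 4 (0.32 to 0.40, adjusted p 0.0514 to 0.135), and the call in Ezh2 +/+ without control replicate 2 or 5 or V617F Ezh2 +/+ replicate 1, 2 or 4 (-0.43 to -0.33, adjusted p 0.0525 to 0.11). With female libraries only, neither call was made (0.35, adjusted p = 0.0806 in Ezh2 -/- and -0.48, adjusted p = 0.08 in Ezh2 +/+). Trim58 was higher in V617F Ezh2 -/- than in V617F Ezh2 +/+, a log2 fold change of 0.77 ± 0.14 (adjusted p = 0.000265), in every fit that left out 1 library. Tspan33, an erythroid tetraspanin, averaged 127 ± 17.2 CPM in V617F Ezh2 -/- and 172 ± 18.9 CPM in Ezh2 -/- (-0.43 ± 0.13, adjusted p = 0.0134), a call lost without Ezh2 -/- replicate 1 or 3 (-0.38 to -0.34, adjusted p 0.0529 to 0.0696).

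Whether the V617F effect differed between Ezh2 -/- and Ezh2 +/+ was tested as an interaction, the log2 fold change in Ezh2 -/- minus that in Ezh2 +/+. It was positive for 2 of the 31 genes (8.47% of all genes) and negative for 3 (10.6% of all genes). At an unadjusted p under 0.05 were 14 of the 31 and 5397 of all 13928 genes. The median over the 31 genes was -0.25, against 0.03 over all genes. The positive ones were Trim58 (0.79 ± 0.19, adjusted p = 0.0174) and Slc14a1 (0.29 ± 0.08, adjusted p = 0.0219). The negative ones were Bsg (-0.47 ± 0.13, adjusted p = 0.0247), Car2 (-0.64 ± 0.20, adjusted p = 0.0343) and Car1 (-0.69 ± 0.23, adjusted p = 0.0426). For Kel, which fell with V617F in both backgrounds, the interaction was -0.03 ± 0.22 and for Tmod1, which rose in both, -0.01 ± 0.48.

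These interaction calls were sensitive to single libraries, and with female libraries only none of the 5 passed (adjusted p 0.073 to 0.175). Trim58 was lost without Ezh2 -/- replicate 3 (0.75, adjusted p = 0.0572), and Slc14a1 without control replicate 1 or Ezh2 -/- replicate 3 (0.29 to 0.31, adjusted p 0.0503 to 0.0562). Bsg was lost without control replicate 1 or Ezh2 -/- replicate 3 or V617F Ezh2 +/+ replicate 4 (-0.43 to -0.39, adjusted p 0.0508 to 0.0655). Car2 was lost without control replicate 1 or 5 or Ezh2 -/- replicate 1 or 3 or V617F Ezh2 +/+ replicate 3 or 4 or V617F Ezh2 -/- replicate 2 (-0.62 to -0.53, adjusted p 0.0536 to 0.09). Car1 was lost in 12 of 19 such fits, without control replicate 1, 2 or 5 or Ezh2 -/- replicate 1, 2, 3 or 4 or V617F Ezh2 +/+ replicate 2 or 4 or V617F Ezh2 -/- replicate 2, 4 or 5 (-0.74 to -0.52, adjusted p 0.0502 to 0.109). Of the background lists, 5 of 21 megakaryocyte, 4 of 21 monocyte, macrophage and dendritic, 5 of 18 T, NK and B cell and 4 of 15 stem and multipotent progenitor genes had a positive interaction, and 1 stem and multipotent progenitor gene had a negative one. Among the 31 genes the number of negative interactions was 11 without V617F Ezh2 +/+ replicate 1 and 5 without control replicate 4. It was 1 without control replicate 5, Ezh2 -/- replicate 1 or V617F Ezh2 -/- replicate 2, and 0 without control replicate 1, Ezh2 -/- replicate 3 or V617F Ezh2 +/+ replicate 4. Without the 4 V617F libraries that stood apart it was 16. The number of positive interactions was 1 without control replicate 1 and 0 without Ezh2 -/- replicate 3. The share of all genes with an interaction called in either direction moved as well. It was 19.1% in the main fit, 45.2% without those 4 libraries and 33% without V617F Ezh2 +/+ replicate 1. It was 6.76% without V617F Ezh2 +/+ replicate 4, 3.83% without control replicate 1 and 2.11% without Ezh2 -/- replicate 3.

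**Figure D4:**
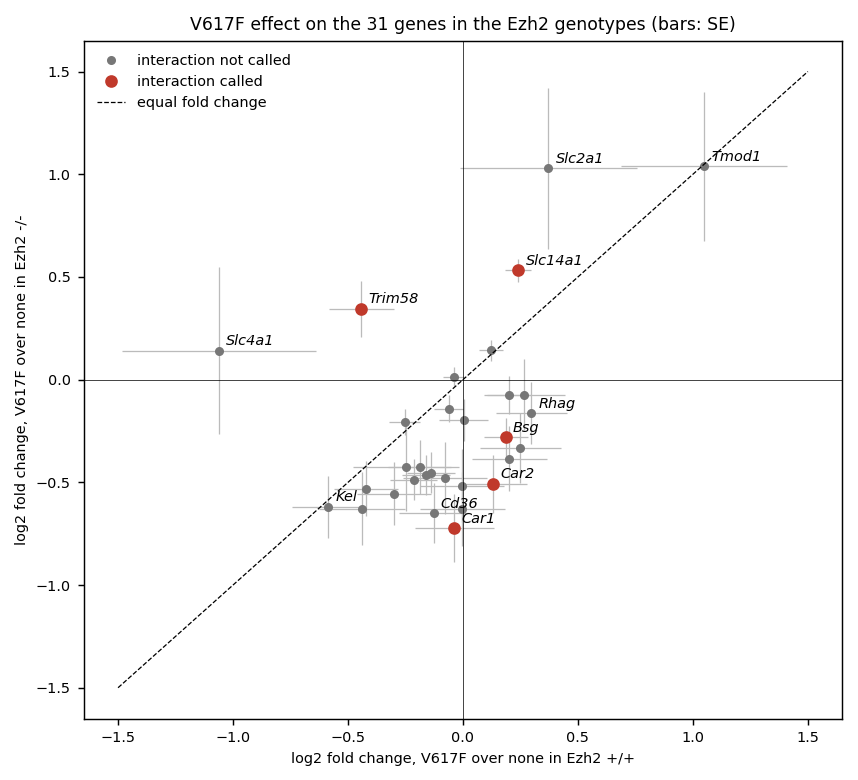
Log2 fold change with V617F in Ezh2 -/- (vertical) against that in Ezh2 +/+ (horizontal) for the 31 genes, with SE bars and a dashed line of equal change. Red points are the 5 genes whose interaction passed: Trim58 (0.79) and Slc14a1 (0.29) lie above the line, and Bsg, Car2 and Car1 below it.

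No gene of the list passed the test when a single Ezh2 allele was lost. None of the 31 genes was called in Ezh2 +/- against Ezh2 +/+ without V617F (0.0144% of all genes were called) or with V617F (0.00718% of all genes), by edgeR or by DESeq2. At an unadjusted p under 0.05, 0 and 2 of the 31 passed in edgeR, beside 384 and 881 of all 13928 genes. The values spanned -0.13 ± 0.14 for Piezo1 to 0.30 ± 0.18 for Epb42 without V617F, and -0.38 ± 0.40 for Slc4a1 to 0.34 ± 0.14 for Trim58 with it. Without V617F, 27 of the 31 were above 0, against 49.7% of all genes, and the median was 0.08. The interaction of V617F with Ezh2 +/- was called for 0 of the 31 by edgeR, as for 0% of all genes, and for 0 by DESeq2. At an unadjusted edgeR p under 0.05 were 0 of the 31 and 937 of all 13928 genes.

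V617F in Ezh2 +/- progenitors raised 2 of the 31 genes (3.35% of all genes rose) and lowered 2 (6.51% of all genes fell). Slc14a1 and Gypc rose (0.18 ± 0.06, adjusted p = 0.0403 for Gypc), and Epb42 (-0.77 ± 0.19, adjusted p = 0.0086) and Slc4a1 fell. In Epb42 all 6 V617F Ezh2 +/- libraries, at 12.4, 21.5 and 29.7 CPM (lowest, median and highest), were below the Ezh2 +/- libraries at 30.5, 38.8, 36.1 and 34.2 CPM. The Epb42 call was lost with female libraries only, with the compared groups alone, and without control replicate 5 and Ezh2 +/- replicates 2 and 5 (-0.78 to -0.74, adjusted p 0.0502 to 0.251). The Slc14a1 call was lost in the last 2 of these settings (0.30, adjusted p 0.149 to 0.164). Gypc was lost without Ezh2 +/- replicate 1 or 5 or V617F Ezh2 +/- replicate 1 or 6 (0.12 to 0.17, adjusted p 0.0589 to 0.266). The number that rose was 1 in those 4 fits. The number that fell was 7 without V617F Ezh2 +/- replicate 2 and 1 without Ezh2 +/- replicate 5. Called in either direction there, in that order, were 13.6% and 5.03% of all genes, against 9.87% in the main fit. Of 17 globin and heme synthesis genes, 10 fell in this comparison, among them Alas2 (-1.29 ± 0.31, adjusted p = 0.00855) and 0 rose. Alas2 was at 33.1 CPM in Ezh2 +/- replicate 5 and at 9.36 to 14.7 CPM in the others of that group. This list was counted in the main fit only, with that replicate included. Of the other lineages, 9 of 21 megakaryocyte, 11 of 15 granulocyte and 2 of 15 stem and multipotent progenitor genes rose, and 16 of 21 monocyte, macrophage and dendritic and 10 of 18 T, NK and B cell genes fell, with 1 monocyte gene higher.

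Further genes of the same pathways were counted in the same way, beside the shares of all genes. Of 25 further membrane skeleton and blood group genes, 0 rose and 3 fell in Ezh2 -/- without V617F, 2 rose and 4 fell in Ezh2 -/- with V617F, 3 rose and 2 fell with V617F in Ezh2 +/+, and 5 rose and 7 fell with V617F in Ezh2 -/-. Stom, stomatin, was among the 7 that fell in the last comparison (-0.41 ± 0.10, adjusted p = 0.00427). Of 22 further transport genes, the counts in the same order were 4 and 4, 5 and 4, 2 and 2, and 3 and 5. Atp2b1, a plasma membrane calcium pump, rose in Ezh2 -/- both without V617F (0.61 ± 0.07, adjusted p = 9.35e-07) and with it (0.53 ± 0.07, adjusted p = 9.9e-06). Slc40a1, the iron exporter ferroportin, fell with V617F in Ezh2 -/- (-0.79 ± 0.13, adjusted p = 0.000255).

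Terminal maturation genes were called in both directions, and the globin and heme synthesis genes called with V617F fell. Of 33 terminal erythroid maturation and organelle clearance genes, 2 rose and 3 fell in Ezh2 -/- without V617F, 3 rose and 1 fell in Ezh2 -/- with V617F, 4 rose and 6 fell with V617F in Ezh2 +/+, and 4 rose and 10 fell with V617F in Ezh2 -/-. Epor, the erythropoietin receptor, was among the 10 (-0.49 ± 0.12, adjusted p = 0.00283). Of 17 globin and heme synthesis genes, the counts in the same order were 1 and 3, 2 and 0, 0 and 3, and 0 and 5. The shares of all genes were again 11.5% and 12.2%, 13% and 13.6%, 9.73% and 13.9%, and 19.1% and 22.5%. Alas2 (-1.09 ± 0.33, adjusted p = 0.0162) and Hbb-bs (-1.38 ± 0.41, adjusted p = 0.0172) were among the 3 that fell in Ezh2 -/- without V617F. There 13 of the 17 were not called, and the median log2 fold change of the list was 0.08. Hbb-bs at 47.6 CPM in Ezh2 -/- replicate 3 was above control replicate 1 at 46.5 CPM. Control replicate 5 was highest of the controls at 167 CPM.

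Averaged over the 31 genes, each library's log2 CPM gave a compact view of these groups. It ranged over 6.86 to 7.20 in V617F Ezh2 -/-, 6.71 to 7.13 in V617F Ezh2 +/-, 6.79 to 7.05 in V617F Ezh2 +/+, 7.20 to 7.35 in Ezh2 -/-, 7.03 to 7.13 in Ezh2 +/- and 6.95 to 7.07 in control libraries. The 4 Ezh2 -/- libraries without V617F were above all controls, and their range met that of V617F Ezh2 -/- at its upper end. The lowest values, 6.71 to 6.79, belonged to V617F Ezh2 +/- replicates 5 and 1 and V617F Ezh2 +/+ replicate 1, which had megakaryocyte list means of 5.14 to 5.21. V617F Ezh2 -/- libraries had megakaryocyte list means of 4.62 to 5.21 and covered a higher range of the 31-gene mean. Abundant and rare genes weigh equally in this mean, and it hides the opposite movement of Car1 and Slc14a1. The summed CPM, in which abundant genes such as Car1 weigh most, gave another order. It was 8107 to 10013 in V617F Ezh2 -/-, 8663 to 14297 in V617F Ezh2 +/- and 9576 to 12784 in V617F Ezh2 +/+. Without V617F it was 12278 to 13346 in Ezh2 -/-, 10935 to 14204 in Ezh2 +/- and 10268 to 12826 in controls.

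**Figure D5:**
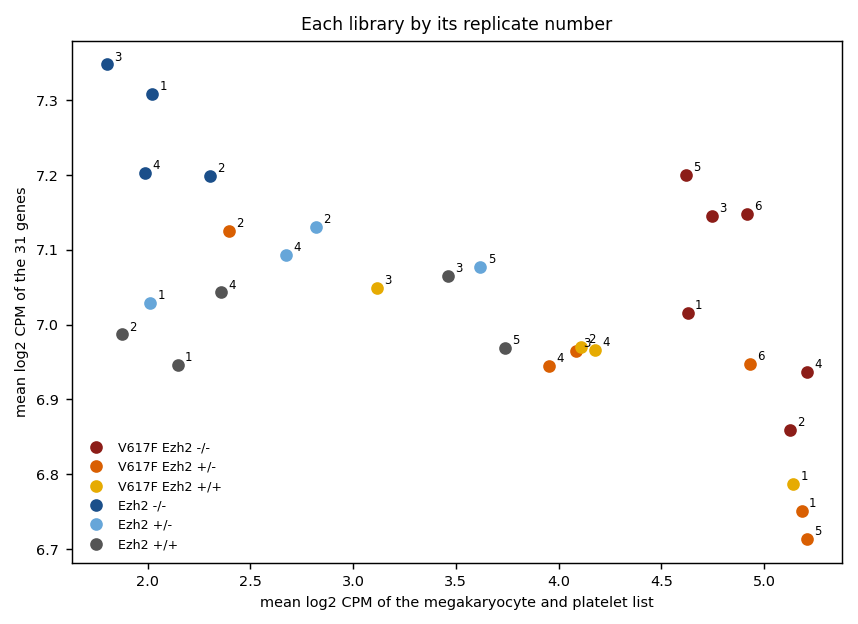
Mean log2 CPM of the 31 genes (vertical) against the mean log2 CPM of the megakaryocyte and platelet list (horizontal), 1 point a library with its replicate number, coloured by group. Ezh2 -/- libraries sit at the upper left (7.20 to 7.35), and V617F Ezh2 +/- replicates 1 and 5 with V617F Ezh2 +/+ replicate 1 at the lower right (6.71 to 6.79).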

How the data were processed

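The deposited files hold raw gene counts, 1 whole number per Entrez identifier and library, with a gene length, per the file headers. The submitters' processing notes name STAR and the mouse build mm9. Its version, the annotation, the counter and the strand setting are not stated there, so reads of overlapping or antisense genes could not be told apart. RNA came from sorted MEPs, per the labels' protocols.

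Symbols and promoters came from RefSeq tables (GRCm38.p6), which named 18772 of 18834 identifiers. No member had counts identical to those of another gene. Genes were filtered with filterByExpr (minimum count 10, minimum total 15), which left 13928, and scaled by TMM (factors 0.950 to 1.093). A single edgeR 4.0.16 quasi-likelihood model (R 4.3.3) over all 29 libraries had a term per genotype group and a term for sex, 22 residual degrees of freedom and a biological coefficient of variation of 18.1%. Tests were two-sided, with Benjamini-Hochberg adjustment over all tested genes in each of 9 comparisons. The script was tested on simulated data. Standard errors were derived from each fold change and F value. TPM was computed from the counts and the deposited gene lengths. Mean log2 CPM used a prior count of 2. A floor of 3 counts corresponds to at most 0.095 CPM, and it covers counting error only.

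The 31 genes and all background lists were chosen with earlier results of these data known. Printed library by library were the 12 genes with the lowest adjusted p over the 4 main comparisons and those with a called interaction. For groups of 6 libraries the lowest, median and highest were printed instead. Tmod1 and Slc4a1 were added after their values were seen. From background lists at most 3 genes per direction were named. Alternatives were DESeq2 1.42.0, its size factors in edgeR, no filter, no sex term, female libraries only, the compared groups alone, a replicate block, and left-out libraries.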

Additional observations from a re-analysis of the deposited data

Results flagged for a closer look

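Single libraries lay far from the rest of their group in 7 of the 186 gene and group combinations examined, where chance gives about 1 in 20. Slc4a1 in Ezh2 +/- replicate 5 was at 130.3 CPM, with the other 3 libraries at 28.3 to 40.9 CPM. Car1 was low in control replicate 5 at 2853 CPM, with the others at 3539 to 3709 CPM, and high in V617F Ezh2 +/- replicate 2 at 4624 CPM, with the others at 2265 to 2827 CPM. Slc14a1 was high in control replicate 3 at 217 CPM and in Ezh2 +/- replicate 2 at 223.5 CPM, with the others at 193 to 197 CPM and 200.3 to 203 CPM. Xk was low in control replicate 5 at 95.9 CPM, with the others at 113 to 119.6 CPM. Piezo1 was high in Ezh2 +/- replicate 1 at 380.1 CPM, with the others at 312 to 316 CPM.

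The V617F effect differed between Ezh2 -/- and Ezh2 +/+ for 5 genes by edgeR's interaction test. The difference was 0.79 for Trim58 (adjusted p = 0.0174), 0.29 for Slc14a1 (adjusted p = 0.0219), -0.47 for Bsg (adjusted p = 0.0247), -0.64 for Car2 (adjusted p = 0.0343) and -0.69 for Car1 (adjusted p = 0.0426), on the log2 scale.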

How the results depend on the processing

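Of 53 called results for single genes, 20 were called under every alternative run, 25 in every fit that left out 1 library, and 0 reversed. Counts of genes that moved by more than 1.5 times are given here, and the cause was not tested. Shares of all genes called in either direction moved too, given as main fit, female libraries only and compared groups alone. They were 23.7%, 11.9% and 25.1% for Ezh2 -/- without V617F and 26.6%, 16% and 19.3% for Ezh2 -/- with V617F. For V617F they were 23.6%, 13.2% and 17.7% in Ezh2 +/+ and 9.87%, 6.53% and 2.41% in Ezh2 +/-. For the interaction with Ezh2 -/- they were 19.1%, 0.903% and 28.9%. With female libraries only, Ezh2 -/- without V617F raised 5, Ezh2 -/- with V617F lowered 1, V617F raised 1 and lowered 2 in Ezh2 +/+ and raised 1 and lowered 1 in Ezh2 +/-, and the interaction with Ezh2 -/- gave 0 positive and 0 negative. With the compared groups alone, Ezh2 -/- without V617F raised 13, V617F raised 1 in Ezh2 +/+ and raised 0 and lowered 0 in Ezh2 +/-, and the interaction gave 7 negative. Without the low-count filter, V617F raised 1 in Ezh2 +/+, with 16.8% of all genes called in either direction. Without the sex term, V617F lowered 6 in Ezh2 +/-, with 15.6% of all genes called. Leaving out control replicate 5 and Ezh2 +/- replicates 2 and 5, V617F lowered 2 in Ezh2 +/+ and raised 0 and lowered 0 in Ezh2 +/-, and the interaction gave 1 negative. Called in either direction in that fit, in that order, were 19.2%, 0.664% and 8.47% of all genes. Leaving out the 4 V617F libraries that stood apart, a choice made after seeing the data, V617F raised 4 in Ezh2 +/+, Ezh2 -/- with V617F lowered 8 and the interaction gave 16 negative. That fit kept all V617F Ezh2 -/- libraries, whose megakaryocyte list means were 4.62 to 5.21 log2 CPM, so its groups differed more in megakaryocyte RNA. Groups share replicate numbers, so the correlation of same-numbered libraries' deviations from their group means was checked. It was over 0.1 in 22 of 62 pairs (-0.49 to 0.79, median -0.01), in up to 3 of 4 pairs of a comparison and in no comparison for every pair, so the numbers were not taken to pair the libraries. With the replicate block, V617F raised 1 in Ezh2 +/- and the interaction gave 1 negative. In those, 8.58% and 11.7% of all genes were called in either direction. No other count moved by over 1.5 times under the block. Under it the calls of Trim58 with V617F in Ezh2 -/- (0.30, adjusted p = 0.0524), Gypc with V617F in Ezh2 +/- (0.15, adjusted p = 0.0622) and the interactions of Car1 (-0.54, adjusted p = 0.109) and Car2 (-0.51, adjusted p = 0.0511) were not made. With female libraries only, the call of Slc14a1 in Ezh2 -/- without V617F (0.21, adjusted p = 0.0772) was among those not made.

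Leaving out 1 library at a time, V617F raised 1 to 3 and lowered 2 to 5 in Ezh2 +/+, raised 1 to 5 and lowered 9 to 19 in Ezh2 -/-, and raised 1 to 2 and lowered 1 to 7 in Ezh2 +/-. Ezh2 -/- with V617F lowered 1 to 6, and the interaction gave 0 to 3 positive and 0 to 11 negative. Over all genes, calls in either direction spanned 18.1% to 23.5%, 22.7% to 43.9% and 5.03% to 13.6% for V617F in the same order. They spanned 13.9% to 36.7% for Ezh2 -/- with V617F and 2.11% to 33% for the interaction. Depth was ample for the 31 genes, whose lowest count in any library was 73, and the number of libraries sets the precision.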
